A study of Mus musculus with 10 samples.

Results

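The 9 genes described here, Hmgcs1, Idi1, Fdps, Fdft1, Sqle, Lss, Cyp51, Insig1 and Srebf2, belong to the sterol synthesis pathway under SREBP2, and were followed in the abdominal aorta of ApoE-/- mice. They were taken by name from the probe annotation, and make up 9 of the 17991 genes with a tested probe. Where a gene had several probes, its brightest one on average was used, and all 9 genes had a probe that was tested. Cells make cholesterol from acetyl-CoA through mevalonate, farnesyl diphosphate, squalene and lanosterol. When sterols run low in the endoplasmic reticulum, the escort protein SCAP carries SREBP2 to the Golgi, where proteases release the part that enters the nucleus and raises transcription of nearly every enzyme of the pathway. When sterols are plentiful, INSIG proteins hold SCAP back, and INSIG1 is itself a target of SREBP2, which closes the loop. In the artery wall, lipoprotein cholesterol taken up by cells lowers this synthesis, and in fat and brown fat the pathway runs beside fatty acid synthesis.

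All mice were male ApoE-/- animals aged 14 weeks, which lack apolipoprotein E and therefore clear lipoproteins poorly. Aortas of 2 mice were combined into a pool, and each of the 5 pools, numbered 1, 6, 8, 11 and 12 in the labels, was split into an infrarenal part, below the renal arteries, and a suprarenal part, above them. Each part was hybridised to 1 array, which gave 5 infrarenal and 5 suprarenal arrays, with no wild-type or treated group, and a pooled value hides the spread between its 2 animals. The question was which genes differ between the regions of the same animals.

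The whole table is summarised first. Intensities had been scaled to a median near 1 on every array, so a log2 intensity of 0 is about the median probe. The probe for the knocked-out Apoe was among the dimmest 30% on the arrays, at -4.14 ± 0.92 log2 units below the kidneys and -3.58 ± 0.74 above them (SD, n = 5 arrays each). Smooth muscle genes, the defining genes of the artery wall, were bright on all arrays, with a mean log2 intensity over the 8 listed genes between 6.70 and 7.0. The arrays were not of the vessel wall alone: Ucp1, the uncoupling protein of brown fat, read 6.84 ± 0.99 below and 7.41 ± 1.72 above the kidneys (SD, n = 5 arrays), and Acta1, skeletal muscle actin, 5.29 ± 1.17 and 4.88 ± 2.10. In bulk RNA, fewer cells of a type and less RNA per cell cannot be told apart. In the mean of the 9 genes, each centred on its own mean, suprarenal pool 6 was the highest array, at 0.73. Both arrays of pool 12 were the lowest, at -0.44 infrarenal and -0.45 suprarenal. Values are therefore also given without pool 6 and without pool 12. Of 36061 probes tested with limma, 0 (0%) differed between the regions after Benjamini-Hochberg adjustment, and 2726 (7.56%) had an unadjusted p under 0.05, 4.51% of all probes being lower in infrarenal aorta.

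Promoter stretches are shown because SREBP2 acts through a short DNA element, the sterol regulatory element, beside which the factor NF-Y binds CCAAT boxes. The RefSeq promoter table (GRCm38.p6) matched 6 of the 9 genes by symbol, namely Hmgcs1, Idi1, Lss, Cyp51, Insig1 and Srebf2, with no entry matched for Fdps, Fdft1 and Sqle. The 250 bases before the annotated start were searched on both strands for TCACCCCA, the core of the element in its classic form, for the looser TCACNNCA, which includes it, for the E-box CACGTG and for CCAAT. The 4 stretches below are those of the pair whose levels followed each other most closely over the arrays (Idi1 and Cyp51), of the first enzyme listed (Hmgcs1) and of the gene of the factor itself (Srebf2). Capitals mark matches to TCACNNCA or CCAAT on either strand, so that a CCAAT on the other strand reads as ATTGG and, in Srebf2, a TCACGGCA as TGCCGTGA.
Hmgcs1, chr13:119690101-119690350 (+ strand): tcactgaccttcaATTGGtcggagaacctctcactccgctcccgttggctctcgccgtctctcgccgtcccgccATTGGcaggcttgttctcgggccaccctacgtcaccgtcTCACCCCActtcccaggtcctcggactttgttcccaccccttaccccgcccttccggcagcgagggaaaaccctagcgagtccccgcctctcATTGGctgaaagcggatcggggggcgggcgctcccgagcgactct
Idi1, chr13:8885356-8885605 (+ strand): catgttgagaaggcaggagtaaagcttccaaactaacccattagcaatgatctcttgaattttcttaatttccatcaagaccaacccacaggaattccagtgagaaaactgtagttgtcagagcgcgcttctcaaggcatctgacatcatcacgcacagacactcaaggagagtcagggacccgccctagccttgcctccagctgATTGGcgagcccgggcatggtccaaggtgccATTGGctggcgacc
Cyp51, chr5:4104698-4104947 (- strand): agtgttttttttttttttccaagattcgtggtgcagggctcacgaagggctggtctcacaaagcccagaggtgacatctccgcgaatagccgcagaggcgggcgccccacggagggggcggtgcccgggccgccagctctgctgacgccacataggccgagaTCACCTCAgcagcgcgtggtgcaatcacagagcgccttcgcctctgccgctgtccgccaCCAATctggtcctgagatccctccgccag
Srebf2, chr15:82147019-82147268 (+ strand): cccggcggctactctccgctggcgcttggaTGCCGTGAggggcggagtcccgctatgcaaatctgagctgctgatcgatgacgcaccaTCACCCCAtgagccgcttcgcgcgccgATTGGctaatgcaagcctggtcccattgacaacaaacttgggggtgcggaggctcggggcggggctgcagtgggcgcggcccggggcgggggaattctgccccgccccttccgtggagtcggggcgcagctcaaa

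The classic core TCACCCCA was found in Hmgcs1, from 137 to 130 bases before the start, and in Srebf2, from 162 to 155 bases before it. It occurred in 1.34% of all 32851 promoter stretches of the same length. The looser form was also found in Cyp51, as TCACCTCA from 88 to 81 bases before the start, and again in Srebf2 as TCACGGCA on the other strand, and 11.4% of all stretches held it. A CCAAT box was present in each of the 6 stretches, with 3 in Hmgcs1 and 2 in Idi1, against 33.8% of all stretches. An E-box was found in Insig1 alone of the 6, and 6.02% of all stretches held one. These are matches of letters, not measured binding.

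All 9 genes had a lower mean in infrarenal than in suprarenal aorta, and none passed the test. The log2 differences, infrarenal minus suprarenal, ran from -0.62 for Insig1 to -0.11 for Hmgcs1 with a median of -0.33, where the median over all 17991 genes was -0.05 and 60.4% of them were lower in infrarenal aorta. A difference at or below -0.33 was seen in 9.83% of all genes. After adjustment over all probes, 0 of the 9 passed by limma, against 0% of probes. At an unadjusted p under 0.05 there were 3, Idi1, Fdft1 and Sqle, all lower in infrarenal aorta, where 5.89% of all genes were lower and 8.05% differed in either direction. With pool 1, 6, 8, 11 or 12 left out, 2, 1, 4, 2 and 5 of the 9 genes were lower at that p, against 7.81%, 2.62%, 2.64%, 4.47% and 8.97% of all genes, and 0 were in the fit with no replicate block, against 5.73% of all genes. The median was -0.21 without pool 6, -0.40 without pool 12, -0.25 without both and -0.19 after quantile normalization, where the median of all genes became 0.00. The regions overlapped for all 9 genes, while 0.886% of genes had every infrarenal array below every suprarenal one. With 5 pools the exact sign-flip test over pools, two-sided, cannot go below p = 0.0625.

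**Figure D1:**
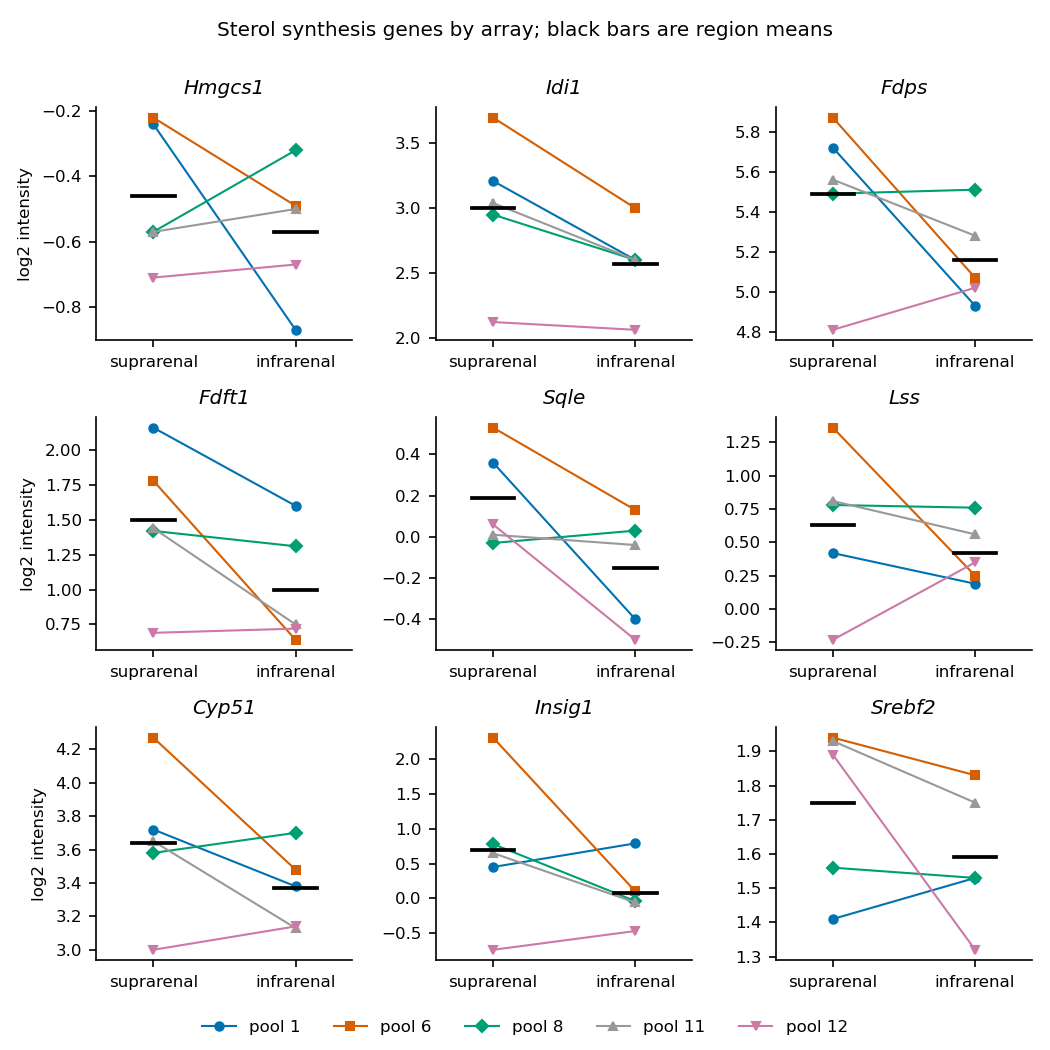
Log2 intensity (vertical axis) of each of the 9 genes on the 10 arrays, with a line joining the suprarenal and the infrarenal array of a pool and black bars at the region means. Suprarenal pool 6 was the highest array for 8 of the genes, and the infrarenal end of the pool 12 line is the higher one for 6 of them.

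The early end of the pathway is taken first. Hmgcs1, HMG-CoA synthase, which acts early in the mevalonate pathway, read -0.87, -0.49, -0.32, -0.50 and -0.67 log2 units in infrarenal and -0.24, -0.22, -0.57, -0.57 and -0.71 in suprarenal aorta of pools 1, 6, 8, 11 and 12. The regions overlapped almost fully, and only pools 1 and 6 were lower below the kidneys. The difference was -0.11 ± 0.16 (SE, n = 5 pools; limma adjusted p = 0.846), with a 95% interval of -0.47 to 0.25, and turned to 0.02 without pool 1.

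Idi1 encodes the isomerase that makes dimethylallyl diphosphate, the starter of isoprenoid chains. Its infrarenal arrays read 2.60, 3.0, 2.60, 2.60 and 2.06 and its suprarenal arrays 3.21, 3.70, 2.95, 3.04 and 2.12, in the same order of pools. It was the one member lower in infrarenal aorta in all 5 pools, as were 6.29% of genes, although the gap in pool 12 was -0.05 against -0.70 to -0.35 elsewhere. Both arrays of pool 12 lay below every other array. The difference was -0.43 ± 0.11 (SE, n = 5 pools; 95% interval -0.68 to -0.18), or 1.35 times as much signal above the kidneys as below, with an unadjusted limma p of 0.00382 and an adjusted p of 0.639. The exact sign-flip test gave p = 0.0625, the smallest 5 pools allow.

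Fdps, farnesyl diphosphate synthase, stands at the branch point from which sterols, ubiquinone, dolichol and protein prenylation all draw. It read 4.93, 5.07, 5.51, 5.28 and 5.02 below the kidneys and 5.72, 5.87, 5.49, 5.56 and 4.81 above them. The gap was wide in pools 1 and 6 (-0.79 and -0.80), near 0 in pool 8 and the other way in pool 12 (0.21). Over all pools it was -0.33 ± 0.16 (SE, n = 5 pools; adjusted p = 0.64 by limma), and -0.21 without pool 1 or without pool 6.

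The squalene steps followed. Fdft1, squalene synthase, the first enzyme committed to sterols, read 1.60, 0.64, 1.31, 0.75 and 0.72 in infrarenal and 2.16, 1.78, 1.42, 1.44 and 0.69 in suprarenal aorta. Pools 1, 6, 8 and 11 were lower below the kidneys and pool 12 did not differ by more than 0.03. Its difference of -0.50 ± 0.17 (SE, n = 5 pools; 95% interval -0.89 to -0.10) had an unadjusted limma p of 0.0193 and an adjusted p of 0.639.

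Sqle, squalene epoxidase, a rate-limiting step of the later pathway, read -0.40, 0.13, 0.03, -0.04 and -0.50 below the kidneys and 0.36, 0.53, -0.03, 0.01 and 0.06 above. Pools 1, 6 and 12 carried the difference, and pools 8 and 11 were level. In pool 12 Sqle differed by -0.56, where the other 6 enzymes lay between -0.05 and 0.58. Over all pools it differed by -0.34 ± 0.15 (SE, n = 5 pools; adjusted p = 0.639 by limma, unadjusted 0.04995).

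Lss, lanosterol synthase, which closes the sterol rings, read 0.19, 0.25, 0.76, 0.56 and 0.35 in infrarenal and 0.42, 1.36, 0.78, 0.81 and -0.23 in suprarenal aorta. Only pool 6 had a wide gap (-1.11), and pool 12 went the other way (0.58). The difference was -0.21 ± 0.21 (SE, n = 5 pools; adjusted p = 0.776 by limma) and turned to 0.02 without pool 6.

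Cyp51, the lanosterol demethylase, read 3.38, 3.48, 3.70, 3.13 and 3.14 below and 3.72, 4.27, 3.58, 3.65 and 3.0 above the kidneys. Pools 1, 6 and 11 were lower in infrarenal aorta, and pools 8 and 12 slightly higher. The difference was -0.28 ± 0.14 (SE, n = 5 pools; adjusted p = 0.649 by limma), -0.15 without pool 6. A second, dimmer probe of Cyp51 differed by -0.27 ± 0.14 (SE, n = 5 pools), so both probes of the gene gave nearly the same mean difference. By pool, the dimmer probe differed by -0.65, -0.37, -0.39, -0.22 and 0.28 in pools 1, 6, 8, 11 and 12. Pool 8 was thus lower below the kidneys by this probe, and higher (0.12) by the brighter one.

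Of the regulators, Insig1, which holds SCAP and its cargo in the endoplasmic reticulum, varied most. Infrarenal arrays read 0.79, 0.10, -0.04, -0.06 and -0.47, and suprarenal arrays 0.45, 2.31, 0.78, 0.65 and -0.74. Suprarenal pool 6 stood far above the rest and suprarenal pool 12 lay lowest. The pool differences ran from -2.21 in pool 6 to 0.34 in pool 1, and their mean of -0.62 ± 0.34 (SE, n = 5 pools; adjusted p = 0.651 by limma) was -0.23 without pool 6 and -0.85 without pool 12.

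Srebf2, the gene of the factor itself, differed little between arrays. It read 1.53, 1.83, 1.53, 1.75 and 1.32 in infrarenal and 1.41, 1.94, 1.56, 1.93 and 1.89 in suprarenal aorta. Pools 1, 6, 8 and 11 differed by 0.18 or less in size, and pool 12 by -0.57. The difference was -0.15 ± 0.11 (SE, n = 5 pools; adjusted p = 0.703 by limma), with a 95% interval of -0.42 to 0.11, and -0.05 without pool 12. Of 2 dimmer probes of Srebf2, one differed by -0.14 ± 0.16 and the other, among the dimmest 30% of probes and at the floor on 1 array, by -0.45 ± 0.64 (SE, n = 5 pools). A pair of further probes annotated to Srebf2 together with Akirin2 or Ube3a was not used.

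**Figure D2:**
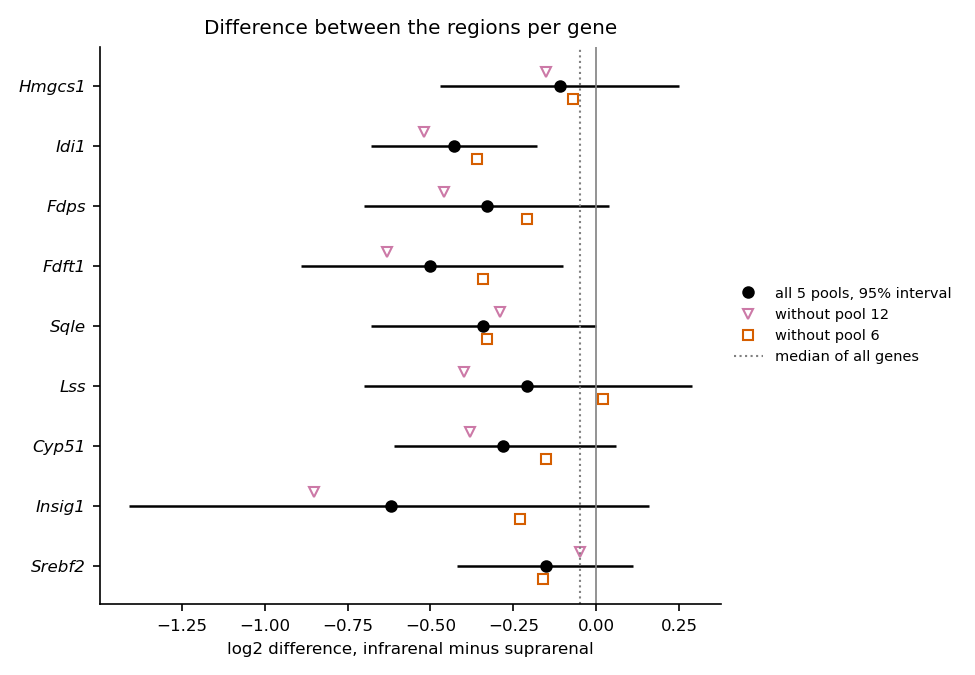
Log2 difference, infrarenal minus suprarenal (horizontal axis), of each gene with its 95% limma interval over all 5 pools (black), and the same value without pool 12 (triangles) and without pool 6 (squares). The intervals of Idi1, Fdft1 and Sqle lie below 0 before adjustment, and leaving out pool 6 brings Lss to 0.02 and Insig1 to -0.23.

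The levels of most enzymes went together from array to array. The 36 pairs among the 9 genes had a median Pearson r of 0.69 over the 10 arrays, which share pools in pairs and are described with no p-value, and 35 pairs were above 0. Idi1 and Cyp51 were the closest pair, with r = 0.90. Against the mean of the other 8 genes, Cyp51 had r = 0.95 and Idi1 0.94, while 0.0358% and 0.0717% of the other bright genes reached as high. Fdps, Insig1 and Lss followed with 0.88, 0.84 and 0.80, which 0.623%, 0.623% and 3.17% of other genes reached. Sqle, Hmgcs1 and Fdft1 had 0.70, 0.68 and 0.67, which 8.81%, 9.6% and 7.83% reached. Srebf2 was the exception at 0.22, a value that 35.1% of other genes reached. Spearman values were 0.93 for Cyp51, 0.92 for Idi1, 0.90 for Fdps, 0.67 for Insig1 and 0.72 for Lss. They were 0.52 for Sqle, 0.64 for Hmgcs1, 0.67 for Fdft1 and 0.20 for Srebf2. With the mean of each region removed from the arrays first, Cyp51 and Idi1 had r = 0.95 and 0.92 and Srebf2 0.06.

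Averaged over the 9 genes, each centred on its own mean, the arrays were ordered as follows. Suprarenal pool 6 was highest at 0.73 log2 units, followed by suprarenal pools 1, 11 and 8 at 0.25, 0.18 and 0.11. Infrarenal pools 8, 6, 1 and 11 lay between 0.02 and -0.16. Both arrays of pool 12 were lowest, at -0.44 below and -0.45 above the kidneys. Suprarenal pool 6 held the highest of the 10 readings for 8 of the genes, all but Fdft1, and suprarenal pool 12 the lowest for 4, with infrarenal pool 12 lowest for 3 more. The spread between arrays was wider in suprarenal aorta for 8 of the 9 genes, all but Sqle, against 53.7% of all genes; this comparison was not tested.

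Counted by pool, 7 of 9 genes were lower in infrarenal aorta in pool 1, 9 in pool 6, 5 in pool 8, 8 in pool 11 and 3 in pool 12. Of all genes, 45.9%, 52.6%, 62.7%, 56.1% and 56.6% were lower in infrarenal aorta in pools 1, 6, 8, 11 and 12. The median difference of the 9 was -0.56, -0.79, -0.02, -0.28 and 0.05 in these pools, where the median of all genes lay between -0.10 and 0.03. Pools 1, 6 and 11 therefore carried the difference. Pool 8 had next to none, and pool 12 had 6 of the genes higher below the kidneys.

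**Figure D3:**
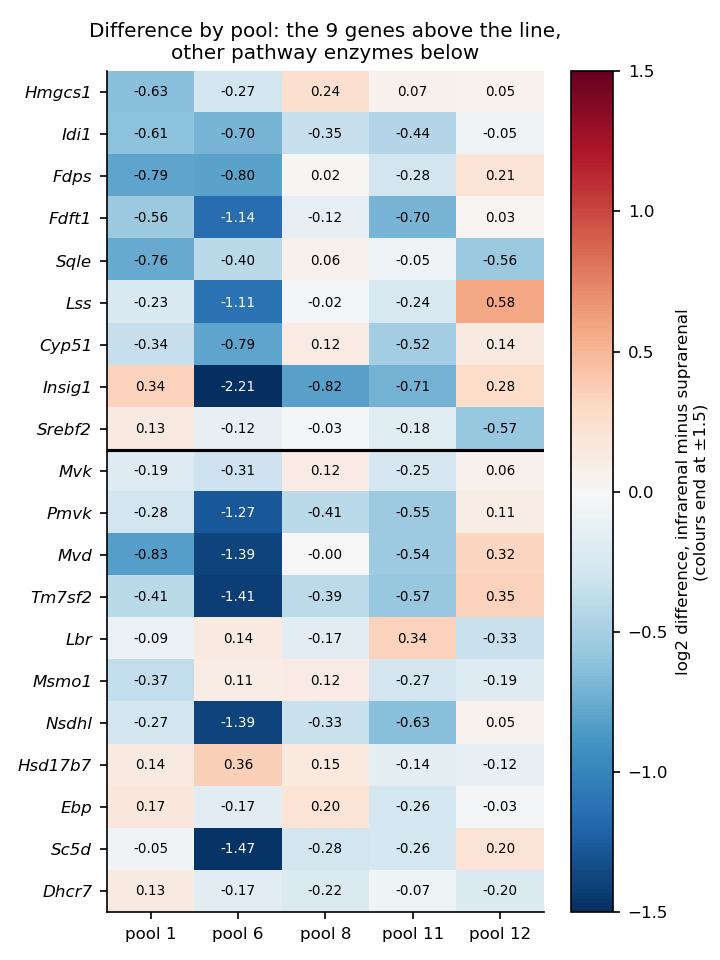
Log2 difference, infrarenal minus suprarenal, in each pool (columns) for the 9 genes (above the line) and 11 other enzymes of the pathway (below the line); blue is lower in infrarenal aorta. Pool 6 is blue for all 9 genes, and pool 12 is above 0 for 6 of them, with Sqle and Srebf2 below -0.5.

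The rest of the pathway was read from lists of genes of known function. Of 14 other sterol synthesis enzymes, 11 were measured, 10 of them with a difference below 0, and 0 passed in either direction, with a median of -0.12, -0.10 without pool 6 and -0.16 without pool 12. Pmvk, phosphomevalonate kinase, differed by -0.48 ± 0.17 (SE, n = 5 pools) and Nsdhl, a sterol dehydrogenase that helps remove the methyl groups of lanosterol, by -0.51 ± 0.19, with a limma adjusted p of 0.639 for each; without pool 6 they differed by -0.28 and -0.29. Nsdhl read 3.90, 3.46, 3.87, 3.63 and 3.33 in infrarenal and 4.17, 4.86, 4.20, 4.26 and 3.28 in suprarenal aorta of pools 1, 6, 8, 11 and 12. It thus had the same high array, suprarenal pool 6, and the same low one, suprarenal pool 12, as Cyp51 and Insig1.

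Of 9 measured genes of SREBP processing and sterol-regulated protein turnover, 7 were below 0 and 0 passed, with a median of -0.10. Spring1, a Golgi regulator of SREBP cleavage, differed by -0.40 ± 0.17 and Scap, the escort protein, by -0.18 ± 0.08 (SE, n = 5 pools), or -0.24 and -0.12 without pool 6. Insig2, the second INSIG gene, differed by -0.07 ± 0.08 where Insig1 differed by -0.62 ± 0.34 (SE, n = 5 pools); the difference between the 2 genes was not tested. Of 5 measured SREBP2 targets outside the pathway 4 were below 0 and 0 passed, with a median of -0.24, -0.11 without pool 6 and -0.33 without pool 12. Cyb5b, an outer mitochondrial cytochrome b5, differed by -0.35 ± 0.17 and Npc2, which carries cholesterol out of lysosomes, by -0.24 ± 0.12 (SE, n = 5 pools). Pool 6 had the widest gap for both, -1.15 and -0.77, and without it they differed by -0.16 and -0.11. All 6 measured genes of the branches from farnesyl diphosphate were below 0 and 0 passed, with a median of -0.13, -0.11 without pool 6 and -0.08 without pool 12. Fnta, a subunit of the prenyltransferases, differed by -0.21 ± 0.09 and Ggps1, which makes geranylgeranyl diphosphate, by -0.19 ± 0.11 (SE, n = 5 pools), or -0.18 and -0.08 without pool 12.

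Fatty acid synthesis and cholesterol export genes were set beside the sterol genes. All 13 fatty acid synthesis genes were below 0 and 0 passed, with a median of -0.50 and pool medians of -0.30, -2.12, -0.30, -0.95 and 0.95 in pools 1, 6, 8, 11 and 12. The median was -0.17 without pool 6 and -0.93 without pool 12. Elovl5, a fatty acid elongase, differed by -0.30 ± 0.13 and Scd2, a desaturase, by -0.47 ± 0.22 (SE, n = 5 pools), or -0.17 and -0.26 without pool 6. Pool 6 was lowest and pool 12 highest, as for the sterol genes, with a wider span. Of 10 measured genes of cholesterol export and LXR targets, which cells raise when sterols are plentiful, 8 were below 0 and 0 passed, with a median of -0.21, -0.07 without pool 6 and -0.25 without pool 12. Those below 0 include the knocked-out Apoe, whose probe was among the dimmest 30% and differed by -0.56 ± 0.68 (SE, n = 5 pools). Abcg1 and Abca1, both cholesterol exporters, differed by -0.36 ± 0.10 and -0.34 ± 0.14. The medians of the sterol synthesis and the export genes were both below 0, as was the median of all genes, at -0.05.

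Levels of tissue markers also differed between the arrays, and 0 genes of these lists passed the test. Their part in the values of the sterol genes was not tested beyond the fits given here. Brown adipocyte genes were below 0 in 8 of 9 cases, with a mean log2 intensity over the list of 3.28 to 5.58 in infrarenal and 3.23 to 5.85 in suprarenal aorta. On suprarenal pool 12, the array lowest for the sterol genes, the list read 3.23, and on the other suprarenal arrays 5.28 to 5.85. The infrarenal arrays did not share that order: the list read 4.55 on infrarenal pool 12, where the sterol genes were as low (-0.44), 3.28 on infrarenal pool 6 (sterol mean -0.10) and 5.58 on infrarenal pool 1 (sterol mean -0.13). General adipocyte genes were below 0 in 8 of 8 cases, at 3.70 to 4.24 in infrarenal and 3.74 to 5.03 in suprarenal aorta, with the highest value on suprarenal pool 6. Skeletal muscle genes were highest on suprarenal pool 12, at 4.62, and lowest on suprarenal pool 6, at 0.75, with 3 of 11 below 0. Macrophage genes were below 0 in 8 of 8 cases, at 3.48 to 3.66 in infrarenal and 3.66 to 4.15 in suprarenal aorta. Of all genes, 60.4% were below 0. By limma, 4 macrophage genes, C1qa, C1qb, C1qc and Cd14, were lower at an unadjusted p under 0.05, against 5.89% of all genes. The brown and general adipocyte lists had 1 such gene each and the skeletal muscle list 0. No gene of these lists was at the floor on all arrays. Lipe of the general adipocyte list, at the floor on 1 array, and Myh1 and Myh7 of the skeletal muscle list were among the dimmest 30% of probes. They were kept in the list means. With the brown adipocyte, general adipocyte or fatty acid synthesis score in the fit, the median difference of the 9 genes was -0.21, -0.16 and -0.20. At an unadjusted p under 0.05, 2, 1 and 2 of the 9 were lower in these fits, against 5.28%, 3.42% and 5.56% of all genes. Idi1 differed by -0.34, -0.31 and -0.33 and Lss by 0.05, 0.11 and 0.07. Of 8 measured genes of the adrenal cortex, which makes steroids from cholesterol, 5 were among the dimmest 30% of probes, the steroid enzymes Cyp11a1, Cyp11b2, Cyp21a1 and Hsd3b1 and the ACTH receptor Mc2r. The other 3 were Star at a mean of -1.36, Nr5a1 at 2.27 and Fdx1 at 5.84. Fdx1, a mitochondrial ferredoxin, differed by -0.31 ± 0.12 (SE, n = 5 pools, limma adjusted p = 0.639). It had r = 0.79 with the mean of the 9 genes over the 10 arrays, where Star had -0.47 and Nr5a1 -0.21. Of the 8 adrenal cortex genes 2 were below 0, with a median difference of 0.11. With the adrenal cortex score in the fit the median difference of the 9 sterol genes was -0.31. At an unadjusted p under 0.05, 2 of the 9 were lower in that fit, against 4.2% of all genes.

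**Figure D4:**
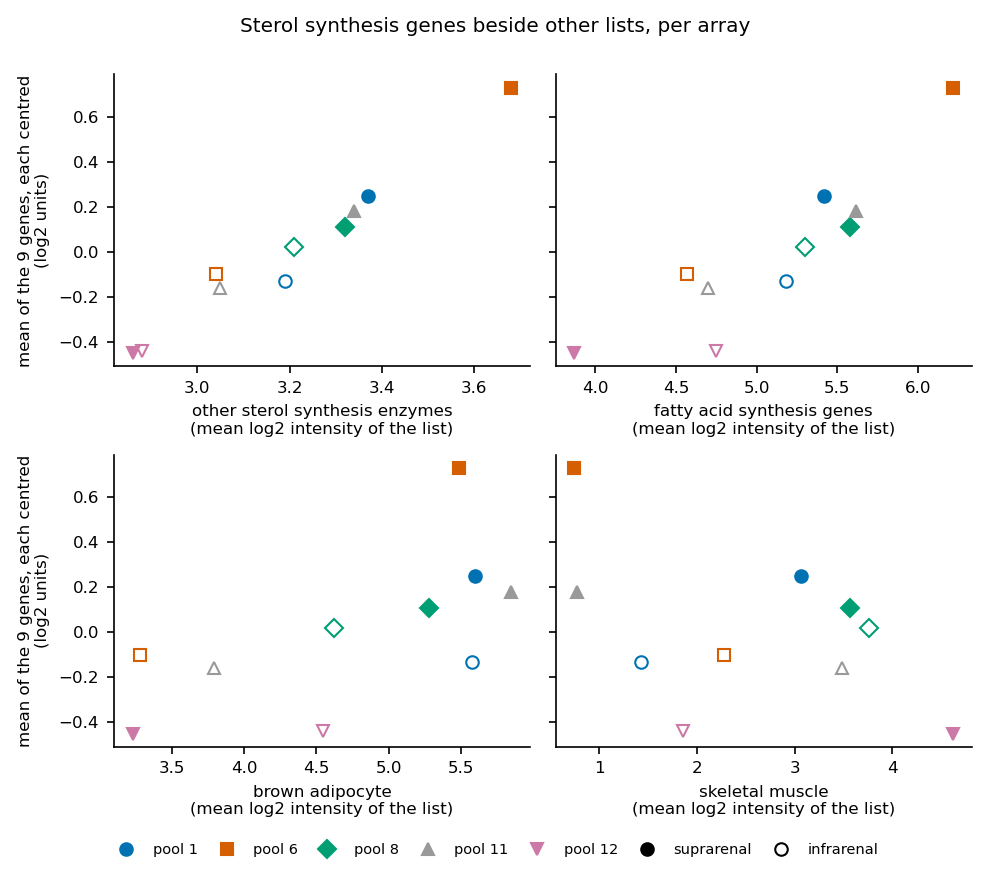
Mean of the 9 genes, each centred on its own mean (vertical axis, log2 units), against the mean log2 intensity of 4 gene lists (horizontal axes) on each array; filled symbols are suprarenal and open symbols infrarenal. Suprarenal pool 6 is at the top and the arrays of pool 12 are at the bottom of each panel, and the points for the other sterol enzymes and the fatty acid genes rise from left to right.

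The genes most like the 9 were sought over the whole array. Among 13955 genes outside the dimmest 30%, the 5 whose levels followed the mean of the 9 genes most closely over the 10 arrays were Ganc, Nsdhl, Mvd, Pex7 and Pmvk, with Pearson r of 0.96, 0.96, 0.95, 0.95 and 0.95. Mvd and Pmvk encode mevalonate pathway enzymes and Nsdhl one of the later sterol enzymes. Pex7 encodes a receptor that brings proteins into peroxisomes and Ganc a glucosidase. Their Spearman values ran from 0.89 to 0.94, and r within the regions from 0.93 to 0.95. The median over all the genes searched was 0.03, and 3.15% of them had r of at least 0.8. Of the other sterol synthesis enzymes, 6 of 11 had r of at least 0.8, as had 9 of 13 fatty acid synthesis genes, 1 of 7 general adipocyte genes, 0 of 8 brown adipocyte genes and 0 of 8 smooth muscle genes. The medians of these lists were 0.81, 0.88, 0.72, 0.68 and -0.43.

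**Figure D5:**
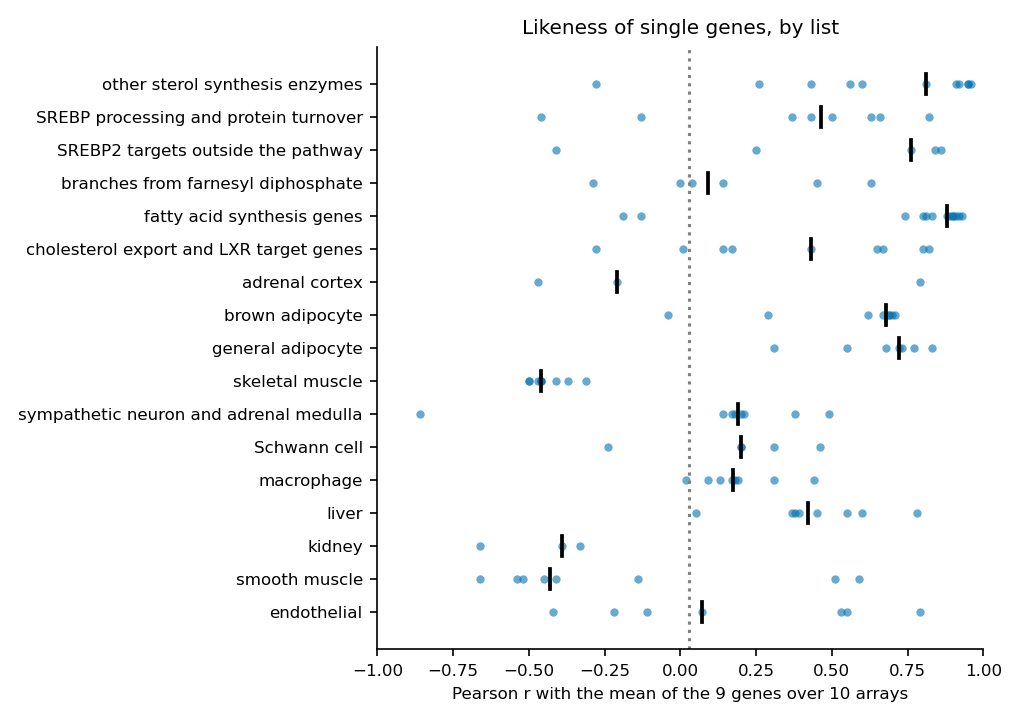
Pearson r over 10 arrays between each gene of a list and the mean of the 9 sterol genes (points), with the list's median (black bars) and the median of all genes searched, 0.03 (dotted line). Sterol enzymes, fatty acid synthesis and adipocyte genes lie mostly to the right, with Lbr, Fads1, Fads2 and Ppargc1a left of the dotted line. Skeletal and smooth muscle genes lie mostly to the left.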

How the data were processed

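RNA of 10 pooled aorta samples was measured on 1 single-colour array each, from biotin-labelled cRNA stained with Cy5-streptavidin and between 0.34 and 0.54 µg of RNA, per the labels' protocols. The deposited values are linear intensities scaled per array by the authors, with medians of 1.0013 to 1.0032 as read from the values; the sources used here do not give the scanner, background correction or scaling method. Of these values 1968 were missing and 1755 at or below 0. Values under 0.0278, the percentile 1 of positive values, were raised to it (5328 values, a log2 of -5.17) before taking log2. The floor compresses differences of dim probes. A probe needed 3 values in each region, which left 36061 of 36227.

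A single gene symbol was given for 21615 probes, 21487 updated through Entrez identifiers with RefSeq (GRCm38.p6), several for 681 and none for 13931. A limma 3.58.1 model (R 4.3.3) with region, pool as a block and a mean-variance trend gave two-sided p-values, adjusted across every probe by Benjamini-Hochberg and called at 0.05. The pairing comes from the design, since both parts of a pool are from the same mice; after subtracting region means, both arrays of pools 1, 6, 8, 11 and 12 correlated with r of 0.045, 0.006, -0.033, -0.054 and -0.093. The numbers after ± are SE from limma or SD, as marked. Pools are replicates of 2 mice, and their number limits the precision. List means cover the genes with a value on all 10 arrays, which leaves out Mbtps2 and Dio2, each missing on infrarenal pool 1. Scripts were tested on simulated data.

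The 9 genes and all lists were chosen with earlier results of these data known. All 9 were named with every probe, and from each pathway list the 2 genes of smallest p were named, with Insig2 and Scap, of the 2 brightest genes 1 each from the brown adipocyte and skeletal muscle lists, and the 5 genes most like the mean of the 9; motifs and any other gene were chosen after values or sequences were seen. Lists of Schwann cell, sympathetic neuron, liver, kidney and endothelial genes had medians of -0.17, -0.19, -0.22, 0.29 and 0.03, with 0 genes passing. Alternatives were quantile normalization, a small offset (0.2701) added to intensities with no floor, leaving out the dimmest 30%, no filter, no replicate block, no variance trend, array weights, RNA input, brown adipocyte and adrenal cortex scores as covariates, all probes of a gene averaged and each pool left out; the general adipocyte and fatty acid synthesis scores and leaving out pools 6 and 12 together were added after the data were seen.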

Additional observations from a re-analysis of the deposited data

Results flagged for a closer look

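An array far from the other 4 of its region was found in 3 of 54 sets of 5 arrays, over the 9 genes, their mean and the list means, where chance gives about 1 in 20. None of the 9 genes had one. The brown adipocyte list read 3.23 log2 units on suprarenal pool 12, against 5.28 to 5.85 on the other suprarenal arrays. The cholesterol export and LXR target list, whose mean includes the dim probe of the knocked-out Apoe, read 2.38 on suprarenal pool 6, against 1.95 to 2.04. The Schwann cell list read 3.37 on suprarenal pool 1, against 2.64 to 2.77.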

How the results depend on the processing

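Of 171 values of the 9 genes under 19 alternatives, 166 kept their direction and did not pass, and the smallest adjusted p of any was 0.384 by limma, for Idi1 without pool 12. Those that turned were Lss, at 0.05 with the brown adipocyte score, 0.02 without pool 6, 0.11 with the general adipocyte score and 0.07 with the fatty acid synthesis score, and Hmgcs1, at 0.02 without pool 1; the cause was not tested. With a pool left out, Lss ranged from -0.40 to 0.02 and Hmgcs1 from -0.20 to 0.02. Over all probes, 1 passed after quantile normalization and 0 under every other alternative run. The number of the 9 genes at an unadjusted p under 0.05, 3 with all arrays, was 0 with no replicate block (the pairing left out), 1 with the general adipocyte score and between 1 (without pool 6) and 5 (without pool 12) with a pool left out. The pool block changed no adjusted call. The median difference of the 9 genes stayed between -0.41 and -0.16 under the alternatives run. After quantile normalization the medians of the other sterol enzymes and the fatty acid synthesis genes were -0.04 and -0.35, and with the general adipocyte score -0.10 and -0.03. With 5 pools, the median half-width of a 95% interval was 0.36 log2 units over all probes, wider than most of the differences given here.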

Other observations

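Within the pathway, 2 genes of one step had unlike values. Tm7sf2 and Lbr both encode sterol C14 reductases, Lbr being also the lamin B receptor of the nuclear envelope. Over the 10 arrays Tm7sf2 followed the mean of the 9 sterol genes with r = 0.91 and Lbr with r = -0.28, as descriptions with no p-value, and the regional differences were -0.48 ± 0.21 and -0.02 ± 0.10 (SE, n = 5 pools), neither past the test. By pool, Tm7sf2 differed by -0.41, -1.41, -0.39, -0.57 and 0.35, and Lbr by -0.09, 0.14, -0.17, 0.34 and -0.33, in pools 1, 6, 8, 11 and 12. Among genes of the final steps, Sc5d had r = 0.92 and Dhcr7 and Ebp 0.43 and 0.26. Msmo1 and Hsd17b7, which work beside Nsdhl in removing the methyl groups of lanosterol, had 0.60 and 0.56 where Nsdhl had 0.96.

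Among fatty acid genes, Fads1 and Fads2, the desaturases of polyunsaturated fatty acids, had r of -0.19 and -0.13, while the other 11 genes of that list lay between 0.74 and 0.93. Srebf1, the gene of the related factor SREBP1, had r = 0.82 where Srebf2 had 0.22 against the other 8 genes, and read 3.44 on suprarenal pool 6 and 1.58 on suprarenal pool 12. All genes in this section were chosen after their values were seen, and the differences between them were not tested.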
